A study of Mus musculus with 2 samples.

Results

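Monocyte progenitors expressing F13a1 and Irf8 made up 980 of the 14068 cells kept from 15710 cell barcodes, 342 of 7098 from the control library and 638 of 6970 from the other, labelled Utx-deleted and called Utx-labelled here. A barcode was kept with at least 500 detected genes, under 10% of its UMIs (unique molecular identifiers, counted as molecules) from mitochondrial genes, and without both hashtag antibodies at 100 UMIs or more and within 5-fold of each other. A kept cell was a member when the neutrophil granule and alarmin genes Ltf, Camp, Ngp, S100a8, S100a9 and Lcn2 made up under 2% of its gene UMIs and when it held at least 5 UMIs of F13a1 and Ly86 together and at least 2 of Irf8. Members could hold at most 4 UMIs of Pf4 (a platelet gene), 4 of H2-Aa (MHC class II) and 2 of Siglech (plasmacytoid dendritic cells). Members were thus selected on the measured levels of these 12 genes, which follow from the choice and are given as a description.

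The cells were mouse bone marrow cells that carried CD45.2 and Kit, the receptor of blood stem and progenitor cells, and were collected 10 weeks after transplantation. The control group was 1 library, and so was the group in which Utx was deleted. Gene and antibody counts came from the same cells (CITE-seq, 10x Genomics 3-prime chemistry). The labels name neither the strain, the deleting driver nor how many animals gave cells. The title of the series concerns the histone methyltransferases MLL3 and MLL4 and whether their roles in stem cell self-renewal and myeloid identity need the enzymatic functions of their complexes. UTX, the product of Kdm6a, is a demethylase of histone H3 lysine 27 in these complexes.

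Monocytes arise in the marrow from Kit-positive progenitors that share a granulocyte and monocyte origin with neutrophils. The transcription factor Irf8 favours the monocyte and dendritic fates over the neutrophil fate, and Klf4 acts after it in monocyte differentiation. Early members of the lineage still make the azurophil granule proteases of the common progenitor, then lose Kit and gain Csf1r, Ccr2 and Ly6C.

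With 1 library per group no test between the conditions was possible, and each difference is one between these 2 libraries. Intervals are exact 95% intervals, Poisson for levels and ratios of levels and Clopper-Pearson for shares of cells, and cover counting error only. Each library held 2 hashtags, antibodies that mark a cell suspension before pooling. The labels do not say what the hashtags marked, so values per hashtag show the spread inside a library and are not replicates. Members were deeply counted, with sums of 11934961 (control) and 18513216 gene UMIs (Utx-labelled), and medians of 33258.5 and 27930 UMIs per cell. Levels are CPM, UMIs of a gene per 1000000 gene UMIs summed over members. The libraries shared 17 barcode sequences, none of which was a member in both, and 1 was a member in either.

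Kdm6a (ENSMUSG00000037369, chrX:18162575-18279936, plus strand, GENCODE M21 on GRCm38) was read first in the members because it is the targeted gene. It stood at 104.1 CPM in the control library (interval 98.4 to 110.0) and at 105.5 CPM in the Utx-labelled library (interval 101 to 110), a log2 ratio of 0.02. Libraries that count transcript ends cannot check a deletion inside the gene, so this level says nothing about the label. The directions below are those of the library as labelled.

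The identity of the members was checked with genes that the rule left out. Klf4 stood at 30.8 CPM in control members and 35.3 CPM in members of the Utx-labelled library, against 0.141 and 0 CPM in Elane-positive progenitors, cells with at least 20 UMIs of Elane, Prtn3 and Mpo that lacked the marker levels of the rule. Ms4a6c, a membrane gene of monocytes, stood at 449 and 596 CPM in members and at 52.4 and 61.8 CPM in those progenitors. Csf1r, the receptor for the monocyte growth factor CSF1, stood at 45.7 and 54.2 CPM against 3.46 and 2.21 CPM. The monocyte chemokine receptor gene Ccr2 was at 101 and 80.2 CPM against 4.17 and 1.75 CPM. These 4 genes were above their levels in the Elane-positive progenitors in both libraries. Klf4 was nevertheless found in a minority of members, with a UMI in 33.0% of control members and 32.3% of the other members, and in 0.412% and 0.781% of neutrophil-rich cells, those at or above the neutrophil gene limit (medians of 9844.5 and 9701 UMIs per cell). With each cell thinned to 5000 UMIs the shares were 10.8% and 13.01% of members and 0.289% and 0.332% of neutrophil-rich cells. Klf4 was not particular to the members, as it stood at 90.6 and 77.6 CPM in the 41 and 40 Siglech or H2-Aa-positive cells, where Csf1r was at 5.13 and 21.6 CPM.

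The members were at the same time rich in azurophil granule transcripts. Elane (neutrophil elastase) stood at 5224 CPM in control members and 6358 CPM in members of the Utx-labelled library, against 6720 and 7175 CPM in the Elane-positive progenitors. The transcription factor genes Cebpe and Gfi1 of neutrophil differentiation were lower in members than in those progenitors. Cebpe stood at 26.2 and 23.1 CPM in members against 121 and 146 CPM, and Gfi1 at 28.9 and 32.6 CPM against 85.9 and 109 CPM. The members thus carried monocyte genes together with granule genes, at lower levels of Cebpe and Gfi1.

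Markers of other lineages were summed over fixed lists in the members. Of 8 megakaryocyte genes none reached 100 UMIs over both libraries, the minimum for counting a gene here, and their sum was 2.93 CPM in control members and 1.62 CPM in the others. Gp1bb had 0 UMIs. Of 7 eosinophil genes none reached the minimum either (sums of 6.45 and 2.43 CPM), with Epx, Ear1 and Il5ra at 0. The macrophage genes C1qa and Cd5l were at 0 UMIs, as were Cd3e, Cd3g, Trac and Trbc2 of the list of T and NK cells. That list summed to 290 and 173 CPM, nearly all from Nkg7, which is also on the azurophil granule list. The 12 maturing-neutrophil genes, 7 of which the rule or another list also uses, summed to 1220 CPM in control members and 1482 CPM in the others. Against 1.66% of all genes tested that were at least 2-fold lower in Utx-labelled members, 4 of 8 stem and multipotent cell genes were (sums of 405 and 296 CPM), of 4 dendritic cell genes 1 was lower (756 and 623 CPM), and of 3 macrophage genes 2 were lower, Adgre1 and Apoe (30.9 and 13.5 CPM). The erythroid list summed to 17.3 and 2.38 CPM, of which Car2 was the 1 gene tested, and the list of basophils and mast cells to 27.3 and 35.6 CPM with no gene past 2-fold. The part of these lists in the results was not tested. The B cell list, at 218 and 141 CPM, is taken up with lymphoid genes below.

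Members were a larger share of the cells in the Utx-labelled library. The share was 4.82% in the control library (342 of 7098 cells, interval 4.33 to 5.34%) and 9.15% in the other (638 of 6970 cells, interval 8.49 to 9.85%), 1.90-fold higher. Within the control library the hashtags gave 5.16% and 4.55%, and within the Utx-labelled library 7.13% and 11.1%. Both hashtags of the Utx-labelled library thus lay above both of the control library, although they differed from each other by more than the control hashtags did. Hashtag 1 alone gave a 1.38-fold higher share and hashtag 2 alone a 2.43-fold higher share. Among cells under the limit on neutrophil genes, a denominator without the large maturing population, members made up 19.5% (342 of 1758) and 40.2% (638 of 1589). Of the barcodes dropped for carrying both hashtags, 3 control and 10 Utx-labelled ones met the rest of the rule. Only such barcodes were removed as doublets, so doublets within a hashtag remain.

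**Figure D1:**
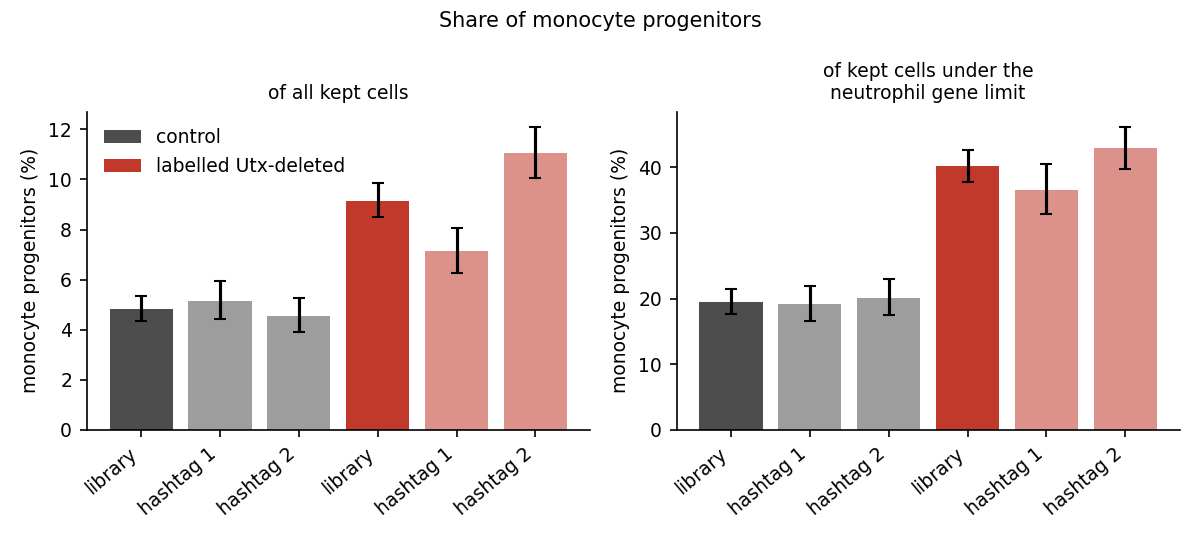
Share of monocyte progenitors in percent (vertical axes) for each library and each hashtag within it, of all kept cells (left) and of kept cells under the neutrophil gene limit (right). Error bars are exact 95% binomial intervals. The control shares lie between 4.55% and 5.16% on the left, and those of the Utx-labelled library between 7.13% and 11.1%.

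Few cells lay at the limits of the rule, except along Irf8. The sum of F13a1 and Ly86 was exactly 5 in 10 members of each library and was 4 in 14 control cells and 9 cells of the other library that met all other criteria. Irf8 stood at its minimum of 2 UMIs in 16 control members and 30 other members, and at 1 UMI in 11 and 34 cells just outside. A further 37 control cells and 163 cells of the Utx-labelled library held no Irf8 UMI but met every other criterion. Cells just outside had intermediate levels, with Ms4a6c at 201 and 117 CPM where the sum of F13a1 and Ly86 was 4 and at 162 and 150 CPM where Irf8 was 1. Klf4 was at 0 in members with Irf8 at its minimum, and at 0 and 3.90 CPM in those with the sum at 5. In the cells without Irf8 Elane was at 12596 and 12094 CPM and Klf4 at 0 and 0.236 CPM. With Irf8 not required, a choice made after the data were seen, the shares were 5.49% and 11.98%, 2.18-fold higher in the Utx-labelled library. F13a1 itself, the plasma transglutaminase subunit of monocytes and platelets, was higher in members of that library (748 and 1296 CPM). This describes cells that were selected on it. A minimum of 5 UMIs of Ms4a6c in place of that on F13a1 and Ly86 was also added after the data were seen. It gave shares of 4.83% and 8.45%, 1.75-fold higher in the Utx-labelled library. Ms4a6c was itself higher in Utx-labelled members (log2 ratio 0.41, both hashtags above), with medians of 14.5 and 16 UMIs per control and Utx-labelled member. Whether either minimum admitted unequal cells was not tested.

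Most genes stayed within 2-fold between the libraries. Of 10318 genes with at least 100 UMIs over both sums, 90 were at least 2-fold higher in members of the Utx-labelled library (0.872%) and 171 at least 2-fold lower (1.66%), and the median log2 ratio was -0.02. Both hashtags of one library lay on the same side of both hashtags of the other for 89 of the 90 and 170 of the 171. Over all genes tested, both hashtags of the Utx-labelled library lay above both control hashtags for 25.1% and below them for 32%. Hashtags of the same library differed 2-fold for 8 of 8740 genes in control members and 21 of 9470 in the others, against 140 to 197 genes in the 4 comparisons of a hashtag of one library with a hashtag of the other.

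**Figure D2:**
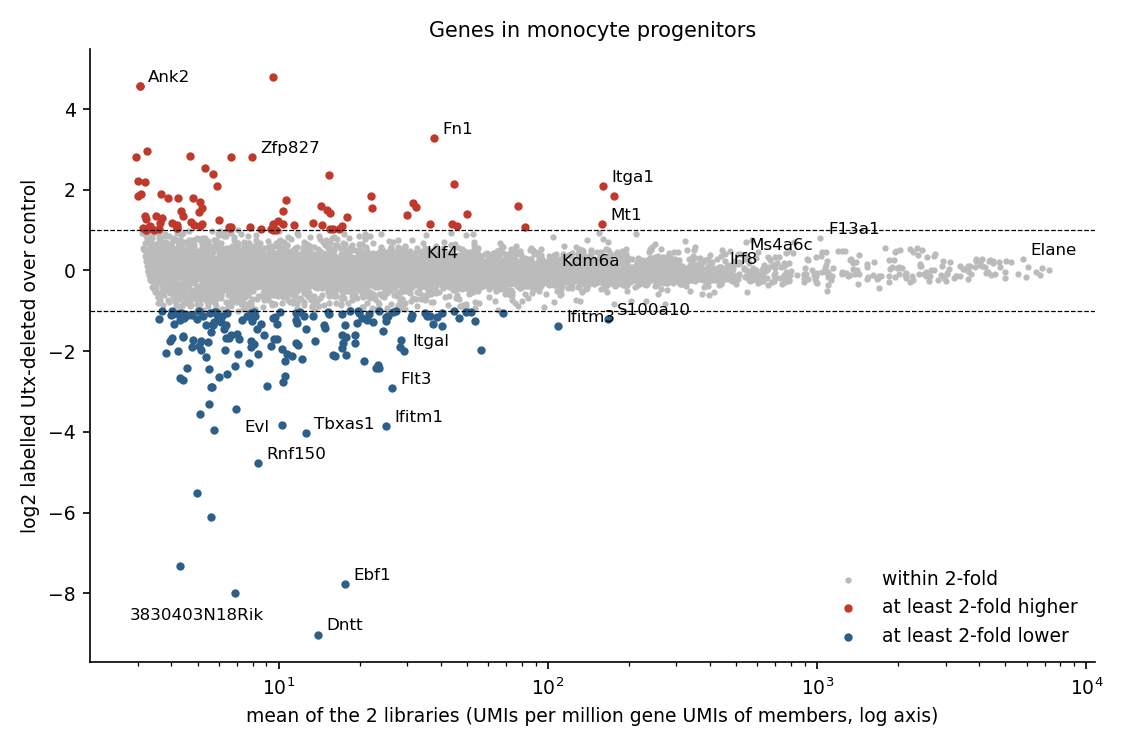
Log2 ratio of the level in members of the Utx-labelled library over control members (vertical axis) against the mean level of the 2 libraries (horizontal axis, CPM, log scale) for 10318 genes, with 1 UMI added to each sum for the ratio. Colours mark the 90 genes at least 2-fold higher and the 171 at least 2-fold lower, dashed lines mark 2-fold, and Irf8, Klf4, Elane and Kdm6a lie near 0.

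Of the 15 transcription factors of the monocyte programme tested, none was 2-fold higher and 1, Irf5, was 2-fold lower, against 2.53% of all genes past 2-fold in either direction, and the median log2 ratio was 0.11. Spi1, which encodes the myeloid master regulator PU.1, was at 230 and 248 CPM (log2 ratio 0.11). Klf4 was at 24.9 and 36.6 CPM in the control hashtags and at 36.0 and 34.9 CPM in the others (log2 ratio 0.20, interval 0.01 to 0.39). Irf5, an interferon regulatory factor downstream of Toll-like receptors, was at 13.3 and 6.0 CPM (log2 ratio -1.15, interval -1.51 to -0.79), with 11.4 and 15.3 CPM in the control hashtags above 6.84 and 5.55 CPM. Zeb2 (0.23), Cebpa (0.18), Runx1 (0.18) and Cebpb (-0.30) had log2 ratios within 2-fold. Irf8, whose minimum chose the members and which is not among the 15, was at 424 and 441 CPM in the control hashtags and at 398 and 475 CPM in the others, which is a description of the selected cells.

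Among growth factor and chemokine receptors the difference was largely that of Flt3. Of 16 tested, 1 was 2-fold lower (1.66% of all genes) and none higher, with a median log2 ratio of -0.01. Flt3 (ENSMUSG00000042817, chr5:147330741-147400489, minus strand), the receptor for FLT3 ligand on multipotent, lymphoid and dendritic progenitors, was at 48.8 and 44.2 CPM in the control hashtags and at 10.6 and 3.73 CPM in the hashtags of the Utx-labelled library. The groups did not overlap, and within the latter library hashtag 1 was the higher. Over the libraries this was 46.6 CPM (interval 42.8 to 50.6) and 6.10 CPM (interval 5.03 to 7.34), 7.58-fold lower (log2 ratio -2.92, interval -3.24 to -2.64). A Flt3 UMI was found in 36.8% of control members and 8.46% of the others. With every cell thinned to 5000 UMIs, which left out no member, the shares were 12.6% and 2.98%. The thinned background was 0.475% and 0.137% in neutrophil-rich cells, of which 497 and 264 were too shallow and were left out. Csf1r (log2 ratio 0.25), Csf2ra (-0.03), Csf3r (-0.06), Kit (0.17), Cx3cr1 (0.05) and Il6ra (0.00) were close in both libraries. Ccr2, which guides monocytes out of the marrow, was at 101 and 80.2 CPM (log2 ratio -0.34), and its hashtags overlapped, with 96.8 and 105 CPM against 99.0 and 70.2 CPM. The share of members with a Ccr2 UMI differed more, at 80.4% and 56.0%. After thinning it was 36.0% (interval 30.9 to 41.3%) and 24.8% (interval 21.5 to 28.3%).

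Among genes of monocyte surface proteins, 3 integrin genes and Ms4a6d passed 2-fold, all lower. Of 21 tested, 4 were 2-fold lower (1.66% of all genes) and none higher, with a median log2 ratio of -0.06. Itgal, the alpha subunit of the leukocyte integrin LFA-1, was at 47.0 and 46.3 CPM in the control hashtags and at 14.6 and 10.3 CPM in the others (log2 ratio -1.99, interval -2.22 to -1.76). Itgb7, a beta subunit that pairs with integrin alpha 4, was at 13.6 and 3.19 CPM (-2.08), and Itgam, the CD11b subunit, was at 20.9 and 9.88 CPM (-1.08). Itgb2, the common partner of Itgal and Itgam, was at 14.7 and 11.1 CPM (-0.41) with overlapping hashtags, and Itga4 was at 147 and 141 CPM (-0.06). Ms4a6d, from the same gene family as Ms4a6c, was the remaining gene past 2-fold (6.03 and 2.70 CPM, log2 ratio -1.15), while Ms4a6c itself had a log2 ratio of 0.41. The classical monocyte marker Ly6c2 was at 1211 and 1449 CPM (0.26). The signalling adaptors Fcer1g and Tyrobp, which carry activating receptors, were at 449 and 297 CPM (-0.59) and at 435 and 325 CPM (-0.42). Ly6c2 and Ms4a6c belong to families of near-identical genes, so their counts are uncertain where reads could be split.

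Secreted and lysosomal genes had the largest single gain among the lists and several lower members. Of 24 tested, 1 was 2-fold higher (0.872% of all genes) and 4 lower (1.66%), with a median log2 ratio of -0.36. That median depended on the hashtag, at 0.03 for hashtag 1 alone and -0.56 for hashtag 2 alone. Fn1 (fibronectin, an extracellular matrix protein made by macrophages) was at 7.97 and 5.03 CPM in the control hashtags and at 98.5 and 53.0 CPM in the others. Every hashtag of the Utx-labelled library was thus far above the control hashtags, and the libraries, at 6.95 and 68.8 CPM, differed 9.79-fold (log2 ratio 3.29, interval 2.99 to 3.64). A Fn1 UMI was found in 8.19% and 23.4% of members, and after thinning in 2.05% and 11.8%, against an unthinned 0.0562% and 0.595% in neutrophil-rich cells. The 4 lower genes were Tgfbi (14.7 and 3.997 CPM, log2 ratio -1.87), S100a4 (21.6 and 7.99 CPM, -1.43), S100a10 (234 and 101 CPM, -1.21) and Hpse (43.1 and 19.2 CPM, -1.17). Tgfbi encodes a matrix protein, S100a10 the partner of annexin A2 and Hpse heparanase. S100a4 rested on 1 hashtag more than the others: it was at 14.4 CPM in hashtag 1 and 4.55 CPM in hashtag 2 of the Utx-labelled library, and its log2 ratio was -0.67 with the mean over cells of each cell's CPM. Lyz2 (lysozyme) was at 526 and 655 CPM, and its hashtags of the latter library, 879 and 536 CPM, were further apart than the libraries.

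**Figure D3:**
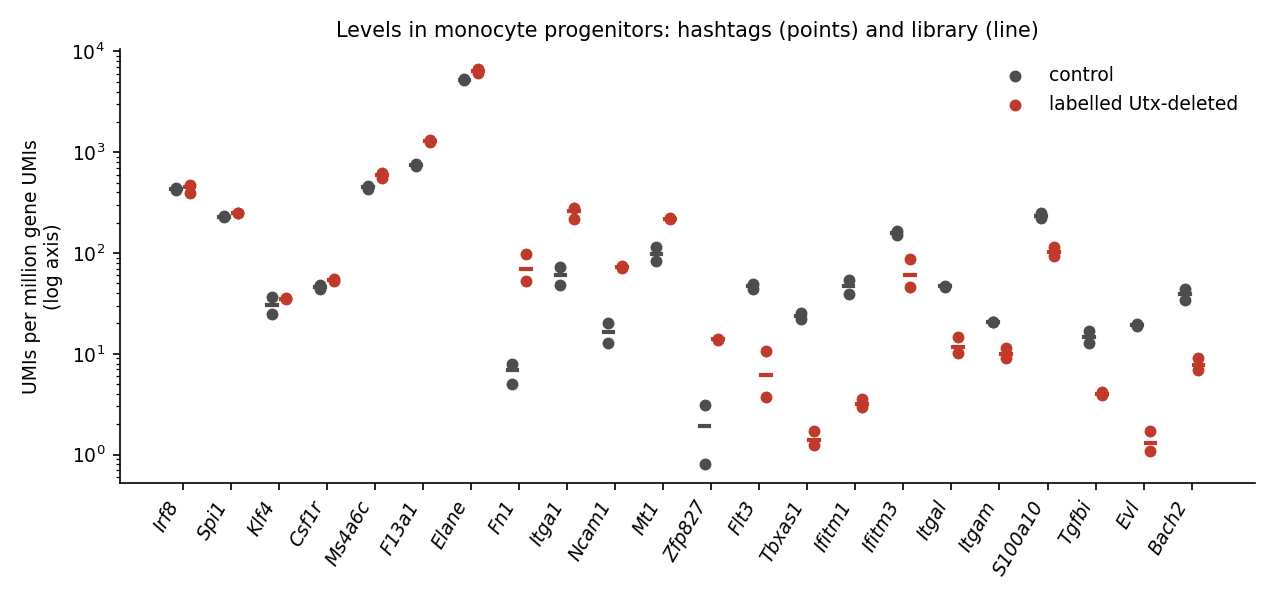
Levels of 22 genes in members (vertical axis, CPM, log scale) in each hashtag (points) and each library (line). Irf8, Spi1, Klf4 and Csf1r lie close in both libraries, the hashtags of Fn1, Itga1, Ncam1, Mt1 and Zfp827 are higher in the Utx-labelled library, and those from Flt3 to Bach2 are lower.

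Among interferon-stimulated genes tested, those past 2-fold were 2 of the 4 Ifitm genes on the list. Of 15 tested, none was 2-fold higher and 2 were lower (1.66% of all genes), with a median log2 ratio of -0.15. Ratios below 0 were found for 11 of the 15, against 5529 of 10318 over all genes. The Ifitm genes encode small membrane proteins that restrict virus entry and lie close together on chromosome 7. Ifitm1 was at 54.5 and 39.4 CPM in the control hashtags and at 3.57 and 2.98 CPM in the others (log2 ratio -3.86, interval -4.30 to -3.50). Ifitm3 was at 150 and 165 CPM against 87.5 and 45.9 CPM (-1.38, interval -1.49 to -1.28). Both hashtags of the Utx-labelled library lay below both control hashtags for each of the 2 genes. Ifitm2, at 501 and 450 CPM (-0.15), and Ifitm6, at 12.7 and 11.3 CPM (-0.18), differed far less. The other tested genes of the response, such as Irf9 (20.03 and 19.7 CPM, -0.03) and Ifit2 (10.5 and 8.43 CPM, -0.32), were within 2-fold. Ifi203 was the next lowest (70.4 and 36.6 CPM, -0.94). Ifit1, Ifit3, Isg15, Irf7, Oas2 and Rsad2 were under 100 UMIs in both libraries together and so were not tested. The same held for Isg20 (24 and 10 UMIs, log2 ratio -1.82, interval -3.12 to -0.78) and Usp18 (31 and 21 UMIs, -1.17, interval -2.07 to -0.35).

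The promoters of these 4 genes are shown because neighbours in 1 cluster differed so unlike each other. They run from 250 bases before to 50 bases after the RefSeq start (GRCm38.p6), on the strand of the gene. Capitals mark matches, on either strand, to GAAA or GGAA followed by any 2 bases and GAAA, letters that resemble the interferon-stimulated response element.
Ifitm1 (chr7:140967826-140968125, plus strand, log2 ratio -3.86): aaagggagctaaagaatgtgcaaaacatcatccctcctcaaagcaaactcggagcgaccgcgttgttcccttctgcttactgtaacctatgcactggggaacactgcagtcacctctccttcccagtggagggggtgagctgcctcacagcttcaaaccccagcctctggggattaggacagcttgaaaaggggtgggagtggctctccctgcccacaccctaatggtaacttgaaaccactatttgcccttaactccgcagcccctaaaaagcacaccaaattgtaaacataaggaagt
Ifitm3 (chr7:141010695-141010994, minus strand, log2 ratio -1.38): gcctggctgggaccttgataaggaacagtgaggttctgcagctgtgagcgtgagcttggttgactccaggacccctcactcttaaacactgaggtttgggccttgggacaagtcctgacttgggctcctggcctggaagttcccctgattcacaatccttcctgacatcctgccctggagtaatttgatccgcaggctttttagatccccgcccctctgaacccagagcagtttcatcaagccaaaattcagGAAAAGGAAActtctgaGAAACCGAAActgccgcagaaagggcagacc
Ifitm2 (chr7:140955912-140956211, minus strand, log2 ratio -0.15): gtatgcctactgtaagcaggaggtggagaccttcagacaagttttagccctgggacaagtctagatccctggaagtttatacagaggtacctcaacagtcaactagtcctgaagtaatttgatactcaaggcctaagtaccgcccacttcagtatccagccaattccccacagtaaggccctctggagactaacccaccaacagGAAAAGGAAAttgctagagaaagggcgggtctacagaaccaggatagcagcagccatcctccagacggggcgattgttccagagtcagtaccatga
Ifitm6 (chr7:141016843-141017142, minus strand, log2 ratio -0.18): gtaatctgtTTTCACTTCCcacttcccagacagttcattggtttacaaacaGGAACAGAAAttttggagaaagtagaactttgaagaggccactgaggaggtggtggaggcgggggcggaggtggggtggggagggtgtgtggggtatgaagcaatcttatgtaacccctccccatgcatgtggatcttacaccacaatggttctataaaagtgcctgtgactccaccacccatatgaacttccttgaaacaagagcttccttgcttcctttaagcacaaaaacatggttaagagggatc
The Ifitm3 window held 2 matches, both just after the start, the Ifitm2 window 1 match upstream of it, and the Ifitm6 window 2 further upstream. The Ifitm1 window held none. The Ifitm1 and Ifitm6 windows lie inside the genes as annotated in GENCODE M21 (chr7:140967221-140969825 and chr7:141015699-141017924), so these windows depend on the annotation used. Over 32851 RefSeq promoters of this length, 5.92% held either form (3.44% the form with GAAA first and 2.72% that with GGAA first). The 2 genes past 2-fold thus did not share the presence of these letters in these windows.

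Granule protein genes of the early myeloid stage stood close. None of the 11 azurophil granule genes was past 2-fold, with a median log2 ratio of 0.09. Elane had a log2 ratio of 0.28, Mpo (myeloperoxidase) of 0.28, Ctsg of 0.21 and Prtn3 of 0.09. Both hashtags of the Utx-labelled library lay above both control hashtags for 6 of the 11 (25.1% of all genes) and below them for 4 (32%). Nkg7, a membrane protein of cytotoxic granules, was the lowest (290 and 172 CPM, -0.75). The 6 NADPH oxidase genes, which serve the oxidative burst, had no member past 2-fold and a median of -0.31. Among the 7 neutrophil progenitor genes Fcnb, a ficolin of secreted granules, was the 1 past 2-fold (2.53% of all genes), at lower levels (21.1 and 8.26 CPM, -1.35). Of 3 MHC class II genes tested none was past 2-fold.

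Genes of G1/S differed little and nearly all to the same side, those of G2/M less uniformly. None of 21 G1/S genes was past 2-fold, 20 of 21 had a log2 ratio below 0, and the median was -0.20. Of 22 G2/M genes none was past 2-fold, 16 were below 0, and the median was -0.14. Over all genes 5529 of 10318 were below 0. Pcna, the sliding clamp of replication, was at 263 and 238 CPM in the control hashtags and at 208 and 209 CPM in the others (-0.27), and Tyms had the lowest G1/S ratio (-0.45). Ccnd1, cyclin D1, was the 1 gene past 2-fold among 10 cyclins and inhibitors (2.53% of all genes), at lower levels (25.9 and 8.53 CPM, -1.60), while Ccnd2 was at 104 and 64.5 CPM (-0.68) and Ccnd3 at 79.6 and 77.9 CPM (-0.03). Of 12 immediate early genes 1 was 2-fold lower (1.66% of all genes), Jun, a subunit of AP-1 (35.0 and 16.1 CPM, -1.12). Its ratio came mainly from hashtag 2, at -0.37 for hashtag 1 alone and -1.70 for hashtag 2 alone. Levels of such genes also respond to cell handling, and the heat shock genes Hspa1a (27.1 and 8.59 CPM) and Hspa1b (43.7 and 13.2 CPM) differed in the same direction, although the control hashtags of Hspa1a, at 13.8 and 41.1 CPM, enclosed the 16.3 CPM of hashtag 1 of the Utx-labelled library. Their part in the Jun ratio was not tested.

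The self-renewal factors Mecom, Hlf and Hoxa9 were lower, while most of their list did not pass 2-fold. Of 13 self-renewal factor genes tested, 3 were 2-fold lower (1.66% of all genes) and none higher, with a median log2 ratio of -0.32. Mecom, a stem cell transcription factor, was at 20.004 and 16.8 CPM in the control hashtags and at 6.37 and 4.39 CPM in the others (-1.85). Hlf was at 10.8 and 4.92 CPM (-1.13) and Hoxa9 at 16.2 and 7.94 CPM (-1.02). Hoxa9 passed 2-fold narrowly, at -0.99 with TMM scaling. Gata2, which marks stem cells and mast cell precursors, was higher (8.29 and 15.4 CPM, 0.88), as was Erg (81.4 and 106 CPM, 0.39), both within 2-fold. Meis1 (-0.47) and Myb (0.08) did not pass 2-fold.

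The 12 lymphoid priming genes tested had log2 ratios below 0, against 5529 of 10318 over all genes. Of the 12, 5 were 2-fold lower (1.66% of all genes) and none higher, with a median log2 ratio of -0.57. Part of this came from 4 control cells. These 4 members held 416 of the 420 Ebf1 UMIs of control members, 131 of 133 of Vpreb3, 88 of 92 of Cd79a and 49 of 49 of Pax5, genes of early B cells. They held 2 Elane UMIs and 1 Ms4a6c UMI, so they met the rule without the myeloid profile of the other members. No member of the Utx-labelled library held 5 or more UMIs of these 4 genes. Without the 4 cells, a choice made after the data were seen, 2 lymphoid genes remained past 2-fold, Dntt and Bach2, and the median was -0.40. Dntt, the terminal transferase of lymphoid progenitors, had 335 UMIs in control members, of which 186 in the 4 cells, and 0 in the others, at least 173-fold lower against a floor of 3 counts over the library, and at least 77.7-fold lower without the 4 cells (149 and 0 UMIs). Bach2, a repressor that favours lymphoid over myeloid fate, was at 43.6 and 34.5 CPM in the control hashtags and at 9.17 and 6.87 CPM in the others (-2.35), and its log2 ratio without the 4 cells was -1.82. Satb1 (64.5 and 45.6 CPM, -0.50) and Notch1 (34.6 and 26.3 CPM, -0.40) were within 2-fold.

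The genes of the UTX and MLL complexes gave no member past 2-fold among 12, with a median log2 ratio of 0.00. Kmt2c (MLL3) was at 114 and 119 CPM and Kmt2d (MLL4) at 33.8 and 37.0 CPM, and Kdm6b, the other H3 lysine 27 demethylase, at 8.80 and 7.94 CPM. None of 10 genes of Polycomb complex 2, which methylates the same lysine, passed 2-fold either (median -0.08), with Ezh2 at 249 and 227 CPM. Of 80 ribosomal protein genes tested, none passed 2-fold (median 0.08).

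Beyond the lists, genes far from 1 were named where at least 20 members of the higher library held a UMI. The 12 furthest higher under that minimum were 1700006J14Rik, Ank2, Prdm16, Fn1, Spats2, Fam83a, Sdc2, Ptprk, Zfp827, Myo18b, Bex1 and 2610035D17Rik, with log2 ratios from 4.79 down to 2.37. All but Fn1 were under 5 CPM in control members. Prdm16 (chr4:154316125-154636873, minus strand), a transcription factor of stem cells and brown fat, was at 0 and 0.347 CPM in the control hashtags and at 8.39 and 4.64 CPM in the others. A UMI was found in 0.585% and 14.1% of members and in 1.57% and 1.17% of neutrophil-rich cells, so that the control share was not above this background. Prdm16 was not particular to members. Elane-positive progenitors held it at 2.19 and 5.81 CPM, with a UMI in 4.74% and 11.5% of cells. The other cells under the neutrophil gene limit, without Siglech or H2-Aa-positive cells, held 12.2 and 9.89 CPM. Zfp827, a zinc finger protein, was at 0.813 and 3.12 CPM against 13.8 and 14.1 CPM (2.80). Sdc2, the heparan sulphate proteoglycan syndecan-2, was at 1.30 and 1.91 CPM against 10.6 and 12.3 CPM (2.81). Ank2, an ankyrin that ties membrane proteins to the cytoskeleton, had 2 UMIs in control members and 110 in the others (log2 ratio 4.58, interval 3.26 to 8.21). The long noncoding RNA 2610035D17Rik was at 4.94 and 25.9 CPM (2.37). 1700006J14Rik, annotated as antisense, was at 0.813 and 0.347 CPM in the control hashtags and at 4.51 and 26.0 CPM in the others, so its size depended on hashtag 2.

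The 12 furthest lower under the same minimum were 3830403N18Rik, Rnf150, Tbxas1, Clnk, Ifitm1, Evl, Ctla2a, Car2, Padi4, Flt3, Rapsn and Nrgn. The minimum leaves out genes of few cells with lower ratios, such as Tox (log2 ratio -5.52), found in 8 control members, and Dntt, found in 16. Tbxas1 (chr6:38875404-39084585, plus strand), the thromboxane A synthase of platelets and macrophages, was at 25.5 and 22.03 CPM in the control hashtags and at 1.71 and 1.24 CPM in the others, 16.4-fold lower (log2 ratio -4.03, interval -4.72 to -3.50). A Tbxas1 UMI was found in 47.4% of control members and 3.61% of the others. After thinning the shares were 12.3% and 1.10%, and 17.6% and 3.596% in neutrophil-rich cells, where the gene is expressed as well. Evl, an actin regulator of the Ena/VASP family, was at 18.7 and 19.8 CPM against 1.71 and 1.08 CPM (-3.84). Rnf150, a RING finger protein, was at 16.6 and 15.8 CPM against 0.621 and 0.497 CPM (-4.77). Padi4, the enzyme that converts arginine to citrulline in histones, was at 10.1 and 0.972 CPM (-3.30), and Clnk, an immunoreceptor adaptor, at 10.9 and 0.648 CPM (-3.97). Car2, carbonic anhydrase 2, was at 12.7 and 1.13 CPM (-3.43). The X-linked 3830403N18Rik had 164 UMIs in control members and 0 in the others, at least 84.8-fold lower against the same floor. It was also at 0 in every other population of the Utx-labelled library, against 8.54 to 12.5 CPM in those of the control library. In the control library it was nearly confined to hashtag 2, at 28.3 CPM against 0.163 CPM in hashtag 1.

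Genes that set the members apart from the remaining cells under the neutrophil gene limit included 3 of 20 that passed 2-fold between the libraries, against 2.53% of all genes tested. These remaining cells are neither members, Elane-positive progenitors nor Siglech or H2-Aa-positive cells. Of the 20 genes outside the rule with the highest ratio of members over them, taking the lower of both libraries, Itga1 and Nrg1 were 2-fold higher in the Utx-labelled library, Pld4 was 2-fold lower and the other 17 were within 2-fold. The 20 led with Klf4, Trem2 and 1700012B09Rik. Itga1, the collagen-binding integrin alpha 1, was at 48.3 and 73.2 CPM in the control hashtags and at 218 and 281 CPM in the others (log2 ratio 2.10, interval 1.99 to 2.21). It was thus already a gene of control members, at 2.61 CPM in the remaining control cells, and an Itga1 UMI was found in 59.4% and 88.4% of members (22.8% and 58.9% after thinning) and in 0.431% and 1.84% of neutrophil-rich cells. The higher level in the Utx-labelled library was not particular to members. Log2 ratios of Itga1 were 2.60 in Elane-positive progenitors, 2.76 in neutrophil-rich cells and 2.81 in the remaining cells. In Siglech or H2-Aa-positive cells the ratio was 1.74, from 11 and 37 UMIs. Nrg1, the growth factor neuregulin 1, was at 18.4 and 37.0 CPM against 39.6 and 72.0 CPM (1.15), where the hashtags of a library differed nearly as much as the libraries. Pld4, a nuclease of endolysosomes, was at 24.9 and 30.2 CPM against 14.6 and 9.61 CPM (-1.29). Apba1, a synaptic adaptor, was at 260 and 317 CPM in members and at 16.8 and 31.4 CPM in the remaining cells. Met, the receptor for hepatocyte growth factor, was at 51.9 and 50.3 CPM in members and at 4.31 and 5.70 CPM there. Neither gene was particular to members. The Siglech or H2-Aa-positive cells held Apba1 at 272 and 218 CPM and Met at 39.3 and 55.9 CPM.

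Some genes past 2-fold were genomic neighbours. Among 10292 pairs of genes with no other tested gene between their starts in GENCODE M21, 8 pairs had both genes at least 2-fold higher and 10 both at least 2-fold lower. Of single genes 0.872% were higher and 1.66% lower, and no expected number of pairs was computed. Such pairs need not lie close, as Kcnj2 and 2610035D17Rik have 1967073 bases between them, and a gene such as Cav2 can count in more than 1 pair. Cav1 and Cav2, which encode caveolins of membrane invaginations, lie on chromosome 6 with 17219 bases between them, and the minus-strand gene Gm15581 overlaps both. Cav1 was at 9.55 and 34.5 CPM (log2 ratio 1.84), Cav2 at 1.68 and 6.10 CPM (1.81) and Gm15581 at 76.2 and 276 CPM (1.85). Whether counting used strand is not given in the sources used here, so reads of these overlapping genes may not be separable. Ncam1, a neural adhesion molecule, was at 20.2 and 12.8 CPM in the control hashtags and at 70.8 and 74.4 CPM in the others (2.14), and the adjacent Ttc12 was at 1.93 and 5.08 CPM (1.35). Ncam1 was not particular to members: a UMI was found in 21.9% and 52.4% of members and in 77.3% and 88.0% of neutrophil-rich cells. After thinning the shares were 5.85% and 23.8% of members and 67.9% and 77.3% of neutrophil-rich cells. On chromosome 1 the interleukin receptor genes Il1r1 (-1.76), Il1rl2 (-1.57) and Il18rap (-1.86) follow each other among tested genes and were all lower. The lectin receptor genes Clec4d (-1.14) and Clec4e (-2.45) on chromosome 6 were lower, as were Car3 (-1.62) and Car2 on chromosome 3.

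The same genes were read in other cells, which share the libraries and so are no independent support. Flt3 was at 21.7 and 2.77 CPM in Elane-positive progenitors (log2 ratio -2.93) and at 67.1 and 10.8 CPM in the remaining cells (-2.62). Itgal was at 32.4 and 4.15 CPM in Elane-positive progenitors (-2.94) and at 103 and 38.7 CPM in neutrophil-rich cells (-1.42). Both genes were thus lower in those populations too. Flt3 was not lower in the few Siglech or H2-Aa-positive cells, at 282 and 337 CPM (0.26). Tbxas1 had a log2 ratio of -4.03 in members, -1.44 in Elane-positive progenitors, -2.03 in neutrophil-rich cells, -1.25 in Siglech or H2-Aa-positive cells and -0.20 in the remaining cells (127 and 111 CPM). In the same order Evl had -3.84, -0.77, -1.03, -0.90 and -0.06. Bach2 had -2.35, -1.43, -1.22, -0.30 and -0.08. Spats2 had 2.96 in members, 3.59 in Elane-positive progenitors, 1.499 in neutrophil-rich cells and 3.21 in the remaining cells. In Siglech or H2-Aa-positive cells Spats2 had 0 control UMIs and 2 in the Utx-labelled library, too few for a ratio. In the order above Zfp827 had 2.80, 2.68, 2.42, 0.73 and 1.73, where 0.73 rested on 6 and 10 UMIs (interval -0.79 to 2.56). The ratios of Spats2 and Zfp827 in Elane-positive progenitors were thus as large as or near those in members. Fn1 was at 0.0706 and 0.461 CPM in Elane-positive progenitors and at 0.351 and 7.96 CPM in the remaining cells, of which 37 control and 163 Utx-labelled cells met the rule but for holding no Irf8 UMI. The part of those cells in the Fn1 level was not tested. The log2 ratio of Fn1 was 3.29 in members and 4.33 in the remaining cells (7 and 95 UMIs). In neutrophil-rich cells it was 4.94 (3 and 126 UMIs, interval 3.77 to 7.64), so the higher level was not particular to members. Mt1, a metallothionein, was at 98.9 and 218 CPM in members (1.14) and at 113 and 236 CPM in Elane-positive progenitors (1.06). Differences between populations in these ratios have no test with 1 library per group.

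Antibody tags gave a readout independent of the rule. They are given as the share of the 13 tags other than the hashtags, since members of the Utx-labelled library carried fewer tag UMIs (median 1506 against 2330.5 per cell). CD48 and CD16/32 (Fc gamma receptors) took most of the tag UMIs of members. CD48 stood at 50.04% and 50.8%, and CD16/32 at 31.8% and 39.1% in the control hashtags and 27.4% and 30.6% in the others (log2 ratios of 0.02 and -0.26). As UMIs per cell the log2 ratios were -0.53 for CD48 and -0.82 for CD16/32. The share of the tag for CD117, the Kit protein, was 7.71% and 6.61% in the control hashtags and 10.2% and 9.03% in the others (log2 ratio 0.40). Without the scaling, as UMIs per cell, its log2 ratio was -0.16, so the direction depends on the tag total. The CD34 tag, on a sialomucin of progenitors, was at 2.14% and 3.405% (0.67, and 0.11 per cell), whereas the Cd34 gene was at 185 and 168 CPM (-0.14). The Gr1 tag, which binds Ly6G and Ly6C, was at 1.99% and 3.69% in the control hashtags and 4.19% and 4.65% in the others (0.68, and 0.12 per cell). CD11b was at 0.856% and 0.691% (-0.31, and -0.86 per cell), with opposite signs for the hashtags (0.15 for hashtag 1 alone and -0.65 for hashtag 2 alone), against 14.2% and 13.2% on neutrophil-rich cells.

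The CD135 tag, which reads the FLT3 protein, had the lowest ratio of the 13. Its share was 0.0785% and 0.0679% in the control hashtags and 0.0186% and 0.0223% in the others (log2 ratio -1.81). The direction was that of the Flt3 gene, but the tag was close to its background: the median was 1 UMI per control member and 0 per member of the other library, and neutrophil-rich cells had shares of 0.0376% and 0.0201%. On a centred log-ratio scale the difference was -0.34. The tags of CD201, CD150, CD127 and Sca1, proteins of stem and lymphoid cells, made up at most 0.310% each in members of either library.

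**Figure D4:**
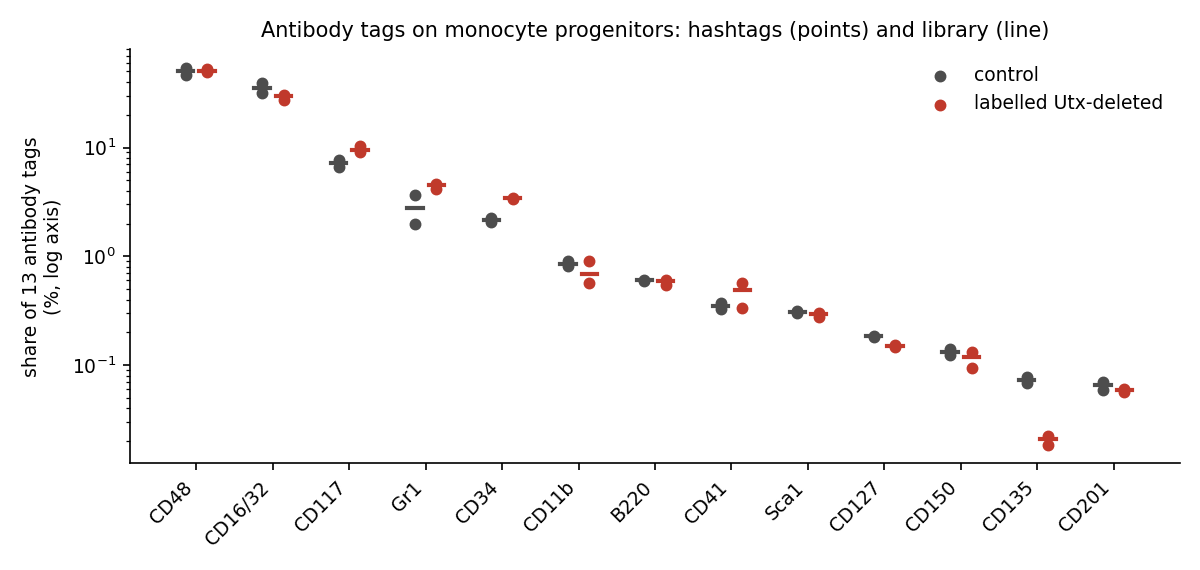
Share of each antibody tag among the 13 tags other than the hashtags in members (vertical axis, percent, log scale) in each hashtag (points) and each library (line). CD48 and CD16/32 take most of the tag UMIs, and CD135 is the tag whose 2 libraries lie furthest apart.

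Members were also described along the Kit tag. Members of each library were split into 3 equal Kit groups (low, middle and high) by their Kit tag share, 114 control cells each and 213, 213 and 212 Utx-labelled cells. The Kit groups are ranges of a gradient and not types, and their limits differ between the libraries (the low Kit group ends at a share of 4.69% in the control library and of 6.26% in the other). Of 7796 genes tested, 112 were 2-fold higher in the low than in the high Kit group of both libraries and 57 were 2-fold higher in the high Kit group of both. Klf4 ran from 85.1 CPM in the low Kit group through 13.96 to 1.16 CPM in the high Kit group of control members, and from 84.5 through 22.2 to 3.84 CPM in the others. Lgals3, the lectin galectin-3, ran from 120 to 2.08 CPM and from 120 to 2.46 CPM. Both genes were highest in the members with least Kit protein. Lyz2 ran from 1085 to 250 CPM and from 1510 to 213 CPM, Ctss (cathepsin S) from 86.2 to 13.2 CPM and from 58.3 to 5.38 CPM, and Csf1r from 69.2 to 31.2 CPM and from 72.6 to 39.0 CPM. Kit itself ran the other way, from 55.6 to 170 CPM and from 75.9 to 177 CPM, as did Mecom, from 2.22 to 41.8 CPM and from 0.345 to 12.1 CPM. Elane was at 4958, 5363 and 5317 CPM in the low, middle and high Kit group of control members and at 5454, 6327 and 7192 CPM in the others, so it was higher with more Kit protein in the Utx-labelled members. The tags moved likewise, CD16/32 from 45% to 24.4% and from 38.6% to 19.0%, and Gr1 from 4.36% to 1.33% and from 6.0% to 2.85%. Since tag shares sum to a whole, a higher Kit share lowers the others in part by construction.

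**Figure D5:**
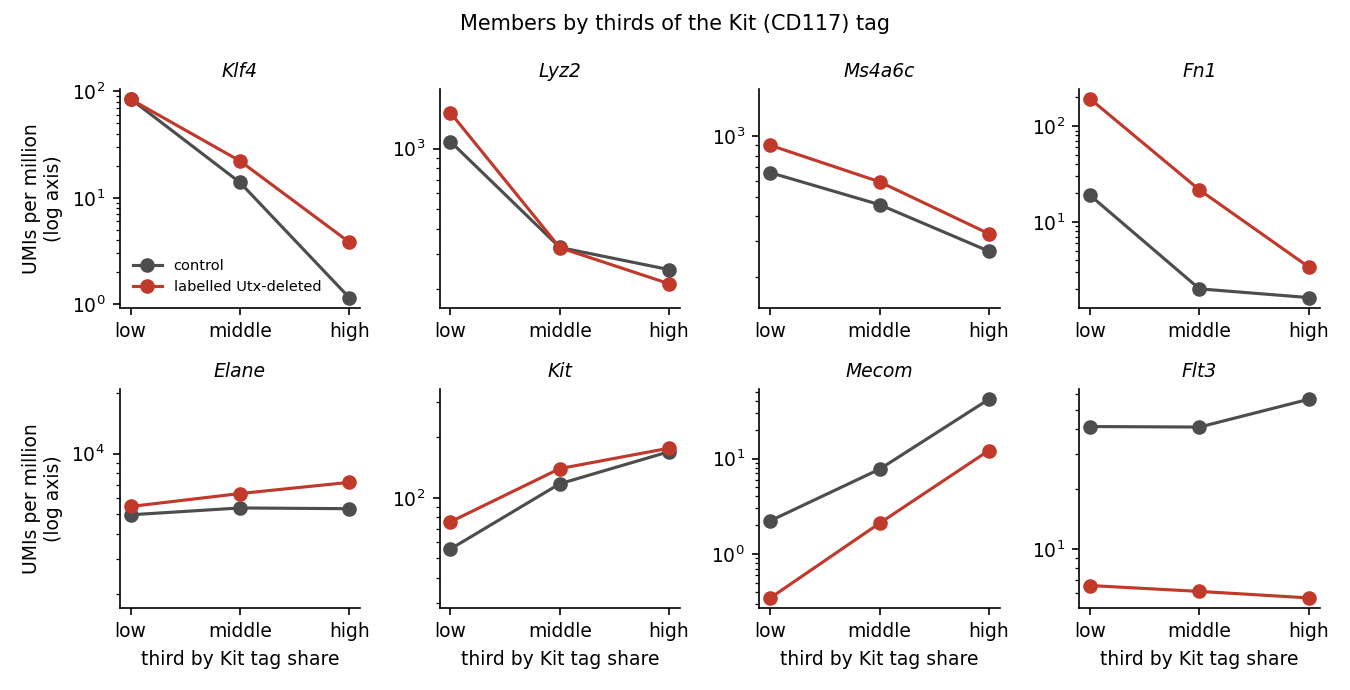
Levels of 8 genes (vertical axes, CPM, log scale, each panel with its own range) in members split into 3 groups by Kit tag share (horizontal axes) in each library. Klf4, Lyz2, Ms4a6c and Fn1 are highest in the low Kit group and Kit and Mecom in the high Kit group, and Flt3 is lower in every Kit group of the Utx-labelled library.

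Differences between the libraries were also read within each Kit group. Flt3 was at 41.1, 40.9 and 56.4 CPM in the low, middle and high Kit group of control members and at 6.55, 6.12 and 5.68 CPM in the others. Tbxas1 was at 20.6, 23.4 and 26.8 CPM against 1.03, 1.61 and 1.54 CPM. Neither gene followed the Kit gradient strongly, and both were lower in every Kit group of the Utx-labelled library. Ifitm1 followed the gradient in control members (18.1, 27.9 and 89.0 CPM) and was at 2.41, 2.10 and 4.91 CPM in the others. Fn1 followed it in the opposite sense, at 18.9, 1.99 and 1.62 CPM against 193, 21.6 and 3.38 CPM, with log2 ratios of 3.33, 3.28 and 0.93, so that its difference was smallest among members with most Kit protein. Evl was highest in the low Kit group of control members (35.0, 18.2 and 7.16 CPM) and at 1.21, 1.45 and 1.23 CPM in the others.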

How the data were processed

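The authors deposited raw counts, UMIs per gene and per antibody tag for each cell barcode (32285 genes and 15 tags), and per the submitters' processing notes these were made with Cell Ranger 7.1.0 on mm10. The deposited counts are not normalized. The annotation, the rule that called cells and whether intronic reads were counted are not given in the sources used here. Members and gene lists were chosen with earlier results of these data known.

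UMIs were summed over members per library and hashtag with Python 3.11.15 and numpy 2.4.6. The log2 ratio of a gene had 1 UMI added on each side, and a gene entered the 2-fold counts from 100 UMIs in all. Hashtag calls needed 100 UMIs and 5 times those of the other hashtag. Named genes are Kdm6a, members of the lists, the 12 highest and 12 lowest ratios past 2-fold seen in at least 20 members of the higher library with the same sign in all 4 hashtag comparisons, and the 20 member-enriched genes. Others (Cav1, Cav2, Gm15581, Ncam1, Ttc12, the interleukin receptors, Clec4d, Clec4e, Car3 and the heat shock genes) were chosen after their values were seen. TMM factors came from edgeR 4.0.16. Coordinates are GENCODE M21 (99.8% of gene IDs matched), and promoters are RefSeq's. The ratio step was tested on simulated data.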

Additional observations from a re-analysis of the deposited data

How the results depend on the processing

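The fold by which the share of members was higher in the Utx-labelled library stayed above 1 under each alternative. It was 1.90 as reported, 1.38 with hashtag 1 alone, 2.43 with hashtag 2 alone, 2.18 with Irf8 not required and 2.67 with each cell thinned to 5000 UMIs under the same minimums, and between 1.75 and 2.07 under the other 10 alternatives. The counts of higher and lower genes, 90 and 171 as reported, were 163 and 265 with a minimum of 50 UMIs, 24 and 44 with 500, 839 and 2197 with none, 287 and 423 at 1.5-fold, 28 and 34 after thinning, and 45 and 96 with hashtag 1 alone, where fewer UMIs leave fewer genes past the minimum. Hashtag 2 alone gave 110 lower genes, and its higher genes stayed within 1.5 times the reported count. TMM scaling moved the median of all genes by 0.03 and gave 95 and 160. Leaving out the 4 control members with B cell transcripts, a choice made after the data were seen, gave 87 higher and 155 lower genes. The 24 genes named as furthest higher or lower were chosen for large ratios of 1 sign, so their staying past 2-fold is no sign of stability. Of their 288 values recomputed, 24 moved outside the counting interval, and 3830403N18Rik had 1 control UMI in hashtag 1 and no interpretable ratio there. Of all 804 gene ratios recomputed, these included, 120 moved. Of 240 list medians recomputed, 30 moved by over 0.1, and of 65 tag ratios 2 moved by over 1.5-fold (CD41 with hashtag 1 alone, at -0.14 against 0.48, and CD135 on the centred log-ratio scale, at -0.34).

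No paired analysis was possible because there was 1 library per group and no test. The absence of a replicate library, the unknown meaning of the hashtags, the different depth of members and the incomplete removal of doublets limit every value.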

Other observations

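A few genes differed 2-fold between the hashtags of 1 library within the members. In control members 3830403N18Rik (0.163 and 28.3 CPM in hashtags 1 and 2), Tox, a regulator of lymphocyte development (0.651 and 19.6 CPM), and Arpp21 (2.76 and 14.9 CPM) were the furthest apart. In members of the Utx-labelled library Hormad2 (0 and 8.94 CPM), Zfp951 (1.24 and 10.0 CPM) and 1700006J14Rik (4.51 and 26.0 CPM) were higher in hashtag 2. There Ifi27l2a, an interferon-induced gene (18.6 and 3.64 CPM), Pid1 (40.2 and 9.94 CPM), the chemokine gene Ccl6 (16.6 and 5.55 CPM) and S100a6 (63.9 and 28.4 CPM) were higher in hashtag 1. Hashtag 1 cells made up 32.4% of the low Kit group and 38.7% of the high Kit group of that library, and 43.0% and 57.0% in the control library.

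Genes outside the lists that were 2-fold lower in members included Cfp, which encodes the complement factor properdin (38.8 and 7.24 CPM, log2 ratio -2.41, interval -2.71 to -2.14), and Ptprcap, a partner of the phosphatase CD45 (39.9 and 7.45 CPM, -2.41). Both had 2 control hashtags above both hashtags of the Utx-labelled library. Smad3 (-1.003) and Smad6 (-1.65), neighbours on chromosome 9 that act in TGF-beta and BMP signalling, were lower as well, Smad3 at the limit of 2-fold. These genes were chosen after their values were seen.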
